A study of Mus musculus with 30 samples.

Results

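Apolipoprotein E (Apoe), apolipoprotein M (Apom), lipoprotein lipase (Lpl) and its inhibitor angiopoietin-like 4 (Angptl4) were followed in mouse kidney across age and diet. The array annotation named these 4 genes on 6 probe sets, out of 13179 probe sets on 2 array types and 6136 named genes. Apoe had 1 probe set on each array type (d00466_f_at and Msa.4.0_f_at), both drawn from the same sequence entry, and Apom (aa008269_s_at), Angptl4 (aa059883_s_at) and Lpl (aa683731_s_at and j03302_rc_at) were read on the first array type. The genes were chosen with their changes with age and with the diet already known, so those changes are given as a description with no test. All samples were total RNA of kidneys of C57BL/6 mice, an inbred laboratory strain. There were 5 numbered samples from control-fed mice of 5 months (young controls), 5 from control-fed mice of 30 months (old controls) and 5 from calorie-restricted mice of 30 months, each measured on both array types, which gave 30 arrays. The labels compare old with young controls for ageing, and calorie-restricted with old controls for the diet, which is a lowered food intake. They give neither sex nor the degree of restriction, and do not say whether the numbers 1 to 5 stand for separate mice, so p-values measure the spread between these samples, called animals here. In whole kidney RNA, fewer cells of a type and less RNA per cell cannot be told apart.

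Apolipoproteins carry lipids in the blood. Apoe is the ligand through which remnants and other particles bind receptors of the low-density lipoprotein receptor family, and is made by liver, macrophages and several other cell types. Apom is a carrier of sphingosine-1-phosphate on high-density lipoprotein, made in liver and in the proximal tubule of the kidney. Lpl, held on the inner wall of capillaries, splits the triglyceride of circulating particles so that the tissue can take up the fatty acids. Angptl4 inactivates Lpl; its transcription is raised by fasting and by the peroxisome proliferator-activated receptors (PPARs), nuclear receptors that bind fatty acids.

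On the mouse assembly GRCm38.p6 Apoe lies at chr7:19696244-19701310, Apom at chr17:35128997-35131801, Angptl4 at chr17:33774900-33781575 and Lpl at chr8:68880555-68906932, each as a protein-coding gene. The promoter windows of the 2 apolipoprotein genes follow, from RefSeq with the coordinates of that assembly. No window was listed for Lpl or Angptl4. Each runs 5′ to 3′ on the minus strand from 250 bases before the start of transcription to 50 bases after, and the capital marks the first transcribed base. For Apoe the most upstream of the 3 listed windows, chr7:19699139-19699438, is given, and for Apom the 1 listed window, chr17:35131752-35132051. The Apoe window lies inside the gene span given above, so the first base it marks is not the 5′ end of that span.
Apoe: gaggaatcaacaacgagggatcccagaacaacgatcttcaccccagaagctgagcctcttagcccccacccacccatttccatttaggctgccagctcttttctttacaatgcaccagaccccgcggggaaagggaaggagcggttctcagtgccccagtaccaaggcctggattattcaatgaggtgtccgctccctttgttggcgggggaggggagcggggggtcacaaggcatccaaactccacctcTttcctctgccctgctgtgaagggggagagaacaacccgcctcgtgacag
Apom: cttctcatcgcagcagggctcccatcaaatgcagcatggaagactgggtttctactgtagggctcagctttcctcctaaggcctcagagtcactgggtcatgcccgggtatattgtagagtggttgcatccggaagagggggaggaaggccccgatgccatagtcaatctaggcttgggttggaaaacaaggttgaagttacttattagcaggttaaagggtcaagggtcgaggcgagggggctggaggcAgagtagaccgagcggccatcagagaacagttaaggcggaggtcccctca
Both strands of these windows were searched for 4 motifs. The nuclear receptor half-site AGGTCA stood in 16.3% of 32851 windows of this length, the GC box GGGCGG in 35.7%, the TATA box TATAAA in 13.6%, and the DR1 element, a direct repeat of the half-site that PPARs bind with their partner receptor, in 0.0396%. None of the 4 was in the 2 windows printed, which says only that these letters are not there. Of the other Apoe windows, not printed, window 2 held 2 matches of the TATA box, and window 3 held none of the 4.

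Signal is given as scaled intensity, in arbitrary units, and a probe set was carried into the fit where it lay above a background floor (1103 on the first table, 1822 on the second) on at least 5 of 15 arrays. Of the 6 probe sets 5 passed. The other, j03302_rc_at of Lpl, lay between -981 and 270 and at or below the floor on all 15 arrays, so Lpl is described from aa683731_s_at alone. Between 33.5% and 37.5% of values per array exceeded the floor on the first table and between 23.8% and 27.6% on the second. All 8 proximal tubule markers on the arrays passed the filter, and 1 of them, Gatm, an enzyme of creatine synthesis, fell with age (-0.87 ± 0.16, SE, limma adjusted p = 0.0026). Slc34a1, the main phosphate transporter of that segment, read 64860 ± 2872 (SD, n = 5) in young controls, 62970 ± 7749 in old controls and 62080 ± 7128 under calorie restriction. For age and diet, Kap read -0.30 ± 0.35 and 0.10 ± 0.35, and Slc22a6 -0.19 ± 0.23 and -0.15 ± 0.23. Cubn read 0.29 ± 0.21 and 0.20 ± 0.21, and Slc27a2 0.01 ± 0.19 and 0.04 ± 0.19. Aqp1 read 0.02 ± 0.18 and 0.37 ± 0.18, and Hnf4a -0.16 ± 0.52 and 0.42 ± 0.52. Gatm read -0.14 ± 0.16 with the diet. None of these values passed the limma threshold.

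Apoe was brighter in every calorie-restricted kidney than in any control kidney. On the first table (d00466_f_at) calorie-restricted animals 1 to 5 read 40647, 54092, 49131, 70808 and 62433. Old controls 1 to 5 read 5735, 1311, 3497, 22420 and 24353, and young controls 290, 2480, 3083, 470 and 14723, of which the values of animals 1 and 4 lay below the floor. The calorie-restricted animals stood above both control groups without overlap, while old and young controls overlapped. Among the old controls, numbers 4 and 5 were several times brighter than numbers 1 to 3, and young control 5 stood alone above the other young animals.

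The mean Apoe intensity on that table was 4209 ± 6003 (SD, n = 5) in young controls, 11460 ± 11020 in old controls and 55420 ± 11680 under calorie restriction. Relative to its mean, the SD was 142.6% in young controls and 96.1% in old controls, against 21.1% in calorie-restricted animals. On the log2 scale with the floor applied, the difference of calorie-restricted from old controls was 3.004 ± 0.76 (SE of the limma fit), an 8.02-fold difference of geometric means and a 4.84-fold difference of the plain means. That was the largest rise with the diet among the 4512 probe sets tested. Old minus young controls was 1.34 ± 0.76, with 2 young animals set to the floor, which lowers the difference. It was 0.55 in numbers 1 to 3 and 2.54 in numbers 4 and 5, and 0.88 to 1.96 without any 1 animal. Calorie-restricted minus young controls was 4.35 ± 0.76. The 3 comparisons share groups, so their values are not independent.

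The second Apoe probe set (Msa.4.0_f_at), read on another array of the same animals, again put calorie-restricted kidneys highest. Calorie-restricted animals 1 to 5 read 53598, 74583, 64816, 89887 and 103944, old controls 5348, 9548, 22446, 35620 and 33597, and young controls -6051, 2418, 4889, -1539 and 19158. Here too the calorie-restricted animals lay wholly above the controls, and young controls 1 and 4 below the floor. Group means were 77370 ± 19960 (SD, n = 5) under calorie restriction, 21310 ± 13690 in old controls and 3775 ± 9546 in young controls. The log2 difference was 2.16 ± 0.61 (SE) for the diet, 2.17 ± 0.61 for age and 4.32 ± 0.61 for calorie-restricted against young animals.

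Of the 105 pairs of animals, 98 stood in the same order on both Apoe probe sets, among them all 10 pairs of young controls, 7 of 10 pairs of old controls and 9 of 10 pairs of calorie-restricted animals. Pairs of a calorie-restricted animal with a control were in the same order because the calorie-restricted group lay wholly above on both. The order was checked because of a feature of the second table. There, of 26 pairs of probe sets of 1 target that carry the suffixes i, f, s or r and differ by more than 1 log2 unit in both groups, 25 changed order between young and old controls, against 0 of 27 between calorie-restricted and old controls and 0 of 23 and 0 of 22 on the first table. Msa.4.0_f_at carries the suffix f but has 0 other probe sets of its target on that table, and its young values followed those of the first table. For other second-table probe sets with these suffixes, a young value may belong to another row, so their differences from young controls are less certain. Of the age differences given, those of Kap, Aqp1, Cd36, Lrp10, Ppara, Acadm, C1qb, Eng, Kdr, Ckm, Actc1 and Tnni3 are of this kind. Young sums of lists that hold such probe sets are less certain as well.

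**Figure D1:**
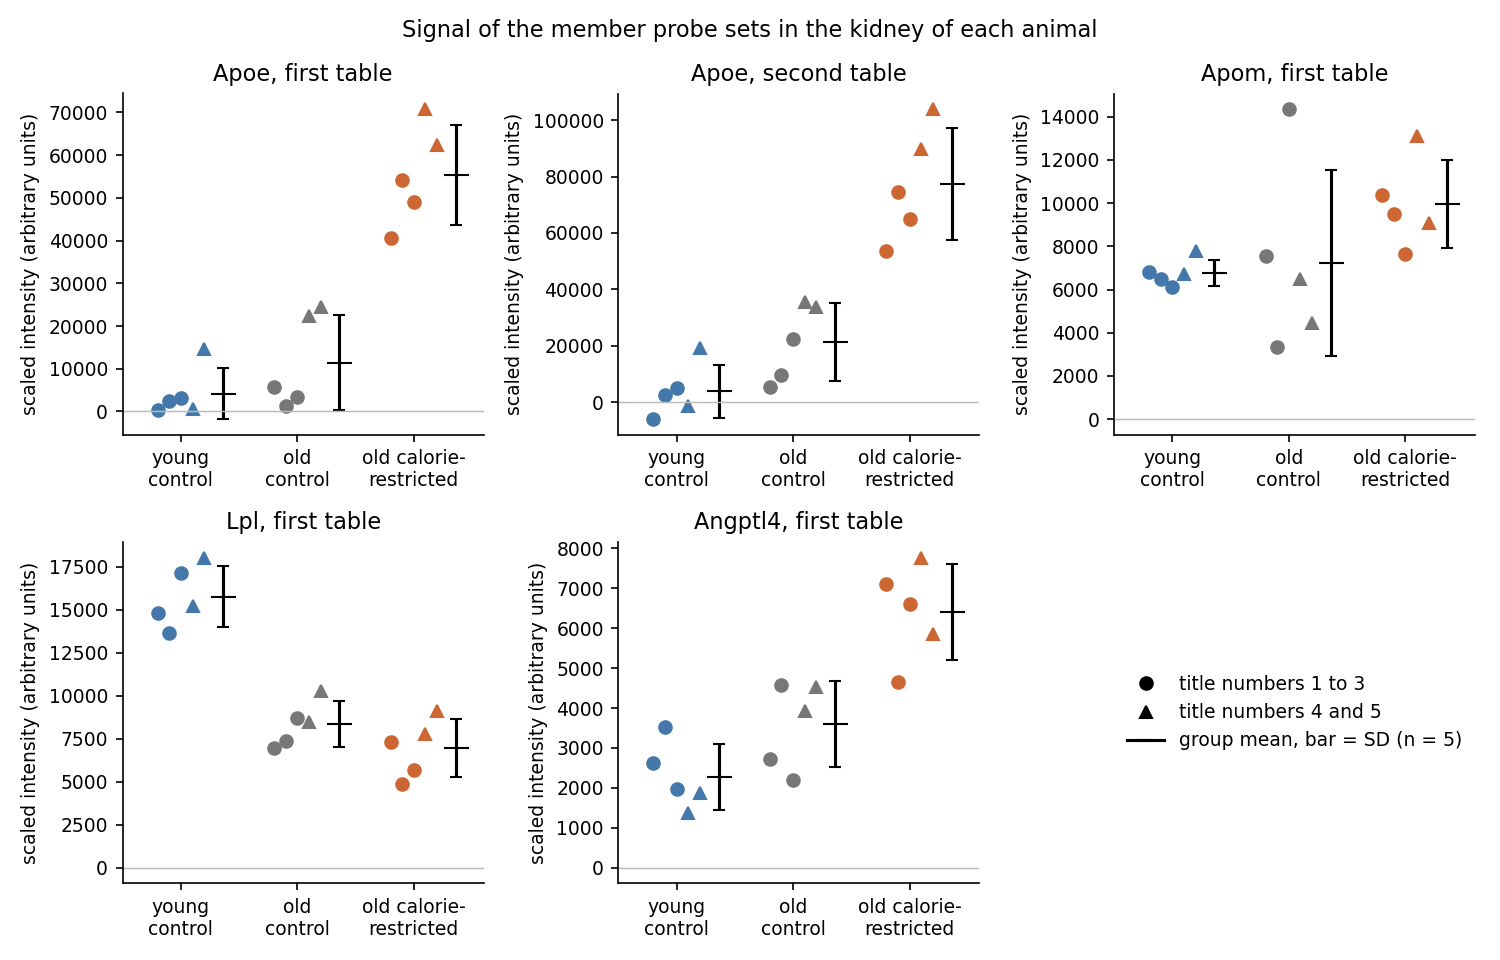
Scaled intensity (arbitrary units) of the 5 probe sets that passed the filter, a point per animal, with the group mean and SD (n = 5) to the right of each group; circles are title numbers 1 to 3 and triangles numbers 4 and 5. Calorie-restricted animals lie above all controls on both Apoe probe sets, from 40647 on the first and 53598 on the second, and Lpl is highest in young controls, from 13627 up.

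**Figure D2:**
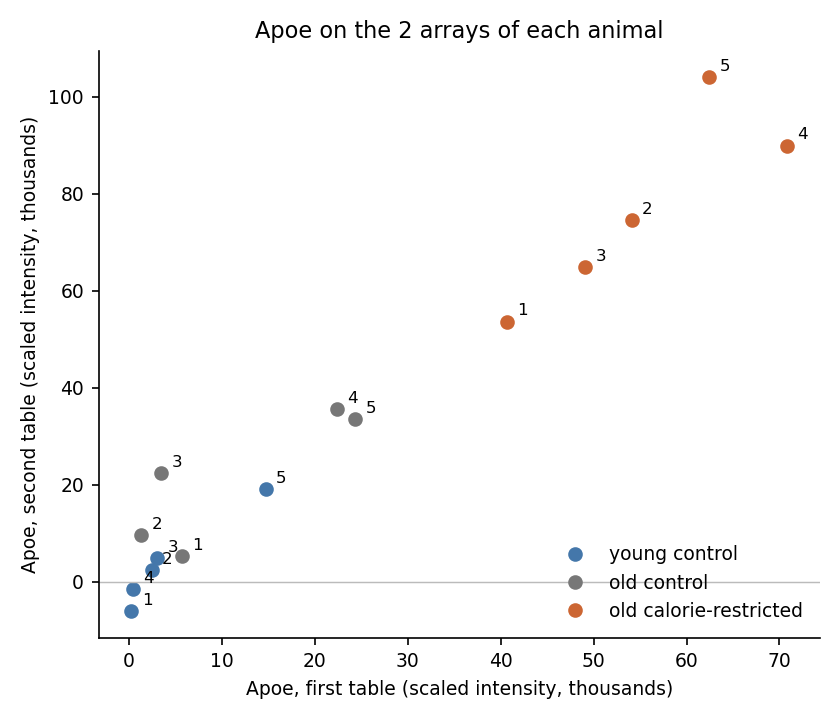
Scaled intensity of Apoe on the first table (horizontal axis) against the second table (vertical axis), a point per animal with its title number, coloured by group. The 5 calorie-restricted animals lie above all controls on both axes, which fixes the order of their pairs with controls. Over all animals 98 of 105 pairs were in the same order on both, with 7 of 10 among old controls.

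Apom, the other apolipoprotein, varied as much within the old controls as between groups. Young controls 1 to 5 read 6794, 6507, 6098, 6709 and 7759, old controls 7549, 3342, 14353, 6478 and 4435, and calorie-restricted animals 10385, 9507, 7658, 13116 and 9093. The groups overlapped in each comparison: the highest and the lowest of all 15 values were both old controls, and 4 of 5 calorie-restricted animals exceeded every young control. Means were 6773 ± 613 (SD, n = 5), 7232 ± 4311 and 9952 ± 2024. The log2 difference was -0.09 ± 0.29 (SE) with age and 0.62 ± 0.29 with the diet. Without old control 3, the brightest, these became -0.38 and 0.92, and without old control 2, the dimmest, 0.15 and 0.39.

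Lpl, the lipase itself, was lower in both old groups than in young controls. Young controls 1 to 5 read 14818, 13627, 17140, 15232 and 18041, old controls 6932, 7366, 8704, 8491 and 10299, and calorie-restricted animals 7329, 4849, 5702, 7789 and 9122. Every old animal, on either diet, lay below every young animal, and the 2 old groups overlapped. From a mean of 15770 ± 1791 (SD, n = 5) in young controls the signal was 8358 ± 1316 in old controls, a log2 difference of -0.92 ± 0.17 (SE) or 1.90-fold, and 6958 ± 1698 in calorie-restricted animals, which was -1.21 ± 0.17 from young and -0.29 ± 0.17 from old controls. With numbers 1 to 3 alone the age difference was -0.99, and with numbers 4 and 5 alone it was -0.83.

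Angptl4, the inhibitor of the lipase, was brightest under calorie restriction. Calorie-restricted animals 1 to 5 read 7119, 4657, 6619, 7772 and 5862, old controls 2724, 4580, 2204, 3938 and 4520, and young controls 2617, 3531, 1959, 1369 and 1868. The lowest calorie-restricted animal stood only just above the highest old control, and old and young controls overlapped. Means rose in the order 2269 ± 834 (SD, n = 5), 3593 ± 1076 and 6406 ± 1201 from young controls to old controls to calorie-restricted animals. The log2 difference with the diet was 0.87 ± 0.26 (SE), or 1.83-fold, and with age 0.68 ± 0.26. The age value came from numbers 4 and 5, with 1.40, more than from numbers 1 to 3, with 0.20.

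In the order of group means, Apoe and Angptl4 ran from young controls through old controls to calorie-restricted animals, and Lpl ran the reverse way, with neighbours overlapping for Apoe and Angptl4 between young and old controls and for Lpl between the 2 old groups. Apom had its highest mean under calorie restriction; old controls lay above young controls in plain mean and below them in mean log2 value, and all its groups overlapped. For the diet, 3 of the 5 probe sets lay wholly above old controls, those of Apoe and that of Angptl4, where 1.86% of all 4512 tested probe sets did so and 2.64% lay wholly below. For age, 1 of 5, that of Lpl, lay wholly below young controls, against 3.12% of all, with 3.61% wholly above. Against young controls, calorie-restricted animals were wholly higher on 3 of 5, against 4.12% of all, and wholly lower on 1, against 3.83%. Since the genes were chosen on these contrasts, nothing is read from these counts.

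Animals numbered 4 and 5 in the titles stood apart from those numbered 1 to 3 for several of these probe sets, and nothing in the labels explains the numbering. On both Apoe probe sets, numbers 4 and 5 were brighter than numbers 1 to 3 in all 6 pairs among old controls and in all 6 among calorie-restricted animals, and in 4 of 6 among young controls. For Lpl this held in 5, 6 and 5 of 6 pairs in old controls, calorie-restricted animals and young controls. Angptl4 did not share this pattern in young controls, where numbers 4 and 5 were brighter in 0 of 6 pairs, against 4 of 6 in each old group. For Apom it was 5 of 6 pairs in young controls, 2 of 6 in old controls and 4 of 6 under calorie restriction. The difference of Apoe with the diet was 4.002 in numbers 1 to 3 and 1.51 in numbers 4 and 5 on the first table, and 2.61 and 1.48 on the second. For Angptl4 it was 0.999 and 0.68.

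Whether the genes varied together from animal to animal was asked of the deviations from the group means on the log2 scale, which the age and diet contrasts do not use. All 7 relations of an Apoe probe set with the other probe set, Apom, Lpl and Angptl4 were computed over 15 animals, with two-sided p-values from 100000 permutations of animals within groups. The 2 Apoe probe sets deviated together (Pearson r = 0.81, permutation p = 0.00871, adjusted over the 7 relations 0.0305; Spearman rho = 0.80, permutation p = 0.00482, adjusted 0.0169). Without young control 5 and old control 2, the animals farthest from the median, r was 0.67 and did not pass (permutation p = 0.0649, adjusted 0.146). For the same animals rho was 0.76 (permutation p = 0.00266, adjusted 0.0186). Within numbers 1 to 3 (9 animals) r was 0.16 (exact permutation p = 0.782). Within numbers 4 and 5 (6 animals) it was 0.99. All 8 possible permutations there gave an absolute r at least as large, so this subset cannot test the relation and its r is no sign of agreement. With the number as a replicate block r was 0.71 and the call was lost (permutation test, adjusted p = 0.280).

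With group means alone removed, Lpl deviated together with Apoe of the second table (r = 0.57, permutation p = 0.00324, adjusted 0.0227; rho = 0.68, permutation p = 0.00217, adjusted 0.0152). With Apoe of the first table the relation did not pass (r = 0.43, permutation p = 0.0431, adjusted 0.101; rho = 0.53, permutation p = 0.0376, adjusted 0.0876). Leaving out young control 5 and old control 1, the farthest animals on the second table, gave r = 0.50 (permutation p = 0.0445, adjusted 0.156). Without young control 5 alone it was 0.57 (permutation test, adjusted p = 0.0927). The relation moved with the number sets: with the set mean of each group removed, r was 0.44 on the second table (exact permutation p = 0.111, adjusted 0.774) and 0.19 on the first. With the number as a replicate block the call was lost, with r = 0.09 on the second table (permutation p = 0.753, adjusted 0.755), and r was -0.25 on the first. In numbers 1 to 3 alone these were 0.40 and -0.06, and in numbers 4 and 5 alone 0.58 and 0.56. The part of the number sets in the relation beyond these values was not tested.

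The relations of Apoe with Apom and with Angptl4 did not pass the test. For Apom r was 0.09 with the first Apoe probe set (permutation p = 0.843, adjusted 0.960; rho = 0.03, permutation p = 0.922) and 0.14 with the second (permutation p = 0.705; rho = 0.03, permutation p = 0.914). For Angptl4 r was 0.09 (permutation p = 0.796; rho = 0.11, permutation p = 0.737) and -0.02 (permutation p = 0.960; rho = -0.01, permutation p = 0.978). Single animals set the values on the first table: without the 2 farthest from the median of Apoe on the first table, r was -0.68 for Apom (permutation p = 0.0587) and 0.61 for Angptl4 (permutation p = 0.0835), while rho was -0.65 for Apom (permutation p = 0.0425, adjusted 0.138) and 0.65 for Angptl4 (permutation p = 0.0786). On the second table these were 0.24 and -0.07.

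**Figure D3:**
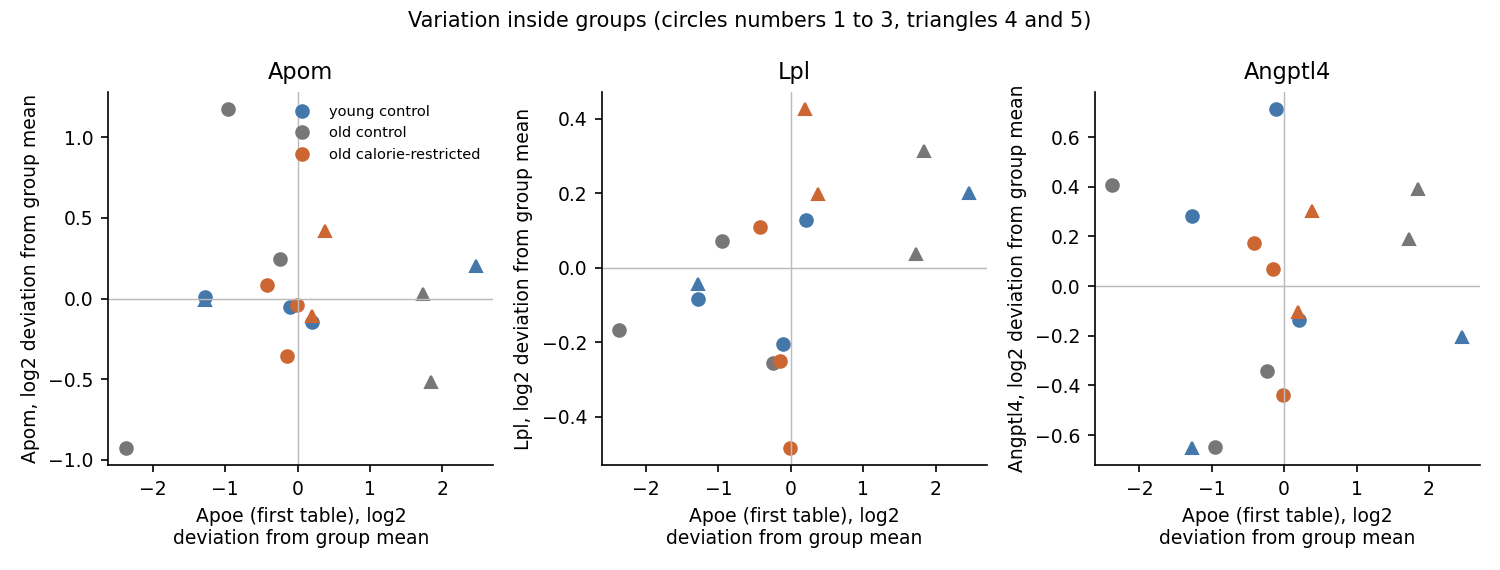
Log2 deviation of each animal from its group mean for Apoe on the first table (horizontal axes) against Apom, Lpl and Angptl4 (vertical axes), 15 animals coloured by group, circles for title numbers 1 to 3 and triangles for 4 and 5. For Lpl r was 0.43, which did not pass after adjustment (0.101 by permutation test), and most triangles lie to the upper right; r was 0.09 for Apom and for Angptl4.

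Among 3035 tested probe sets with a single other gene name, the within-group deviations over 15 animals most like those of the second, brighter Apoe probe set belonged to Mrpl18, a protein of the mitochondrial ribosome (r = 0.85, and 0.88 with the first Apoe probe set), H2-D1, a class I histocompatibility antigen (0.82 and 0.67), Tpsb2, a mast cell tryptase (0.82 and 0.54), Ifngr1, a chain of the interferon gamma receptor (0.80 and 0.70), and Rpl32l, a near copy of a ribosomal protein gene that may share signal with it (0.79 and 0.84). The most opposed were Bag1, a partner of heat shock protein chaperones (-0.81 and -0.78), Slc3a2, the heavy chain of amino acid transporters (-0.80 and -0.57), Snx14 (-0.79 and -0.86), Cramp1l (-0.79 and -0.65) and Sirt2, a deacetylase (-0.78 and -0.73). Lpl ranked 122 from the top, Apom 990 and Angptl4 1395. The central 95% of these correlations ran from -0.64 to 0.61, and all points share the same 15 animals and their number sets, so they are given as a description.

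Other genes of lipid transport were called about as often as all probe sets. Of 110 genes in 5 lists, 40 were tested on their brightest probe set. With age 1 rose and 1 fell, 5% of the 40 against 5.05% of all tested probe sets (2.95% higher, 2.11% lower). With the diet 1 rose, 2.5% against 2.62% (0.909% higher, 1.71% lower). Calls were by limma with Benjamini-Hochberg adjustment over all probe sets at 0.05. Between calorie-restricted and young animals 5.72% of all passed, 2.95% higher and 2.77% lower. The 40 had a median log2 difference of 0.09 with age and 0.11 with the diet, beside -0.04 and 0.03 for all probe sets. All 3 calls were of PPAR target genes. Apolipoproteins, lipases, lipoprotein receptors and the list of cholesterol efflux and lipid nuclear receptors had no call.

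Among the other apolipoproteins and enzymes of lipoprotein particles, 0 of 5 tested of 23 listed genes passed in either comparison by limma, with 1 in age and 0 in diet at an unadjusted p under 0.05. Clu, or apolipoprotein J, read 6622 ± 1182 (SD, n = 5) in young controls, 12330 ± 4150 in old controls and 9799 ± 2815 under calorie restriction (log2 differences of 0.85 ± 0.24 and -0.32 ± 0.24, SE, with limma adjusted p = 0.0562 and 0.581). Apoa2 and Apoc1, small apolipoproteins of high-density and triglyceride-rich particles, read 0.23 ± 0.38 and 0.44 ± 0.39 with the diet, and the editing enzyme Apobec1 -0.05 ± 0.14. Apoa1, Apoa4, Apoc2, Apod and Apoh were on the arrays but did not pass the filter.

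Of the lipases and their processing enzymes, 0 of 5 tested of 19 passed with age or the diet by limma, also with 0 at an unadjusted p under 0.05. The hormone-sensitive lipase Lipe read 0.25 ± 0.24 for age and 0.03 ± 0.24 for diet, the monoglyceride lipase Mgll 0.36 ± 0.24 and 0.21 ± 0.24, and the proprotein convertases Pcsk5 and Pcsk6, relatives of furin, 0.25 ± 0.18 and 0.03 ± 0.17 with the diet. Of the lipoprotein receptors, 0 of 8 tested of 21 passed, with 1 in age and 0 in diet at an unadjusted p under 0.05. The fatty acid and lipoprotein receptor Cd36 read -0.67 ± 0.28 for age and -0.27 ± 0.28 for diet, the tubular uptake receptor Cubn 0.29 ± 0.21 and 0.20 ± 0.21, its adaptor Dab2 0.29 ± 0.28 and -0.31 ± 0.28, and Lrp10 0.13 ± 0.15 and 0.16 ± 0.15.

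In the list of cholesterol efflux and lipid nuclear receptors 0 of 7 tested of 19 passed by limma, with 1 in age and 0 in diet at an unadjusted p under 0.05. Ppara, the receptor PPAR alpha, read 0.22 ± 0.30 for age and 0.15 ± 0.30 for diet, the bile acid receptor Nr1h4 -0.50 ± 0.23 and -0.33 ± 0.23, the hepatocyte factor Hnf4a -0.16 ± 0.52 and 0.42 ± 0.52, and the cholesterol transporter Npc1 0.09 ± 0.19 and -0.07 ± 0.19.

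Of the PPAR targets, the list nearest to Angptl4, 1 of 15 tested rose with the diet, and 1 rose and 1 fell with age. The summed intensity of the 15 tested genes ran from 136100 to 200100 in calorie-restricted animals, from 104800 to 124400 in old controls and from 102800 to 130200 in young controls. Without Cyp4a10 and Cyp4a14, a step added after the values were seen, the sum of the other 13 ran from 85940 to 117500, 82410 to 86290 and 88030 to 104100 in the same order of groups, so that calorie-restricted animals overlapped both control groups. With the diet 12 of 15 had a log2 difference above 0, where 54.7% of all tested probe sets did, and their median was 0.26. The gene that rose by limma was Cyp4a14, a fatty acid hydroxylase, by 1.64 ± 0.41 (SE, adjusted p = 0.0453), from 6956 ± 2557 (SD, n = 5) to 21550 ± 6837. When each of the 15 animals was left out in turn, no listed gene passed with the diet in 10 of the 15 fits. Its relative Cyp4a10 read 0.92 ± 0.25 (adjusted p = 0.0705), and Plin2, which coats lipid droplets, 0.61 ± 0.19 (adjusted p = 0.117). Below 0 with the diet were Fabp3 (-0.53 ± 0.28), Slc25a20 (-0.14 ± 0.23) and Fabp5 (-0.05 ± 0.11). With age Vnn1, a pantetheinase, rose by 1.02 ± 0.26 (adjusted p = 0.0297), and Acadm, the medium-chain acyl-CoA dehydrogenase, fell by 0.66 ± 0.17 (adjusted p = 0.0349), the latter on a second-table probe set with the suffix f.

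**Figure D4:**
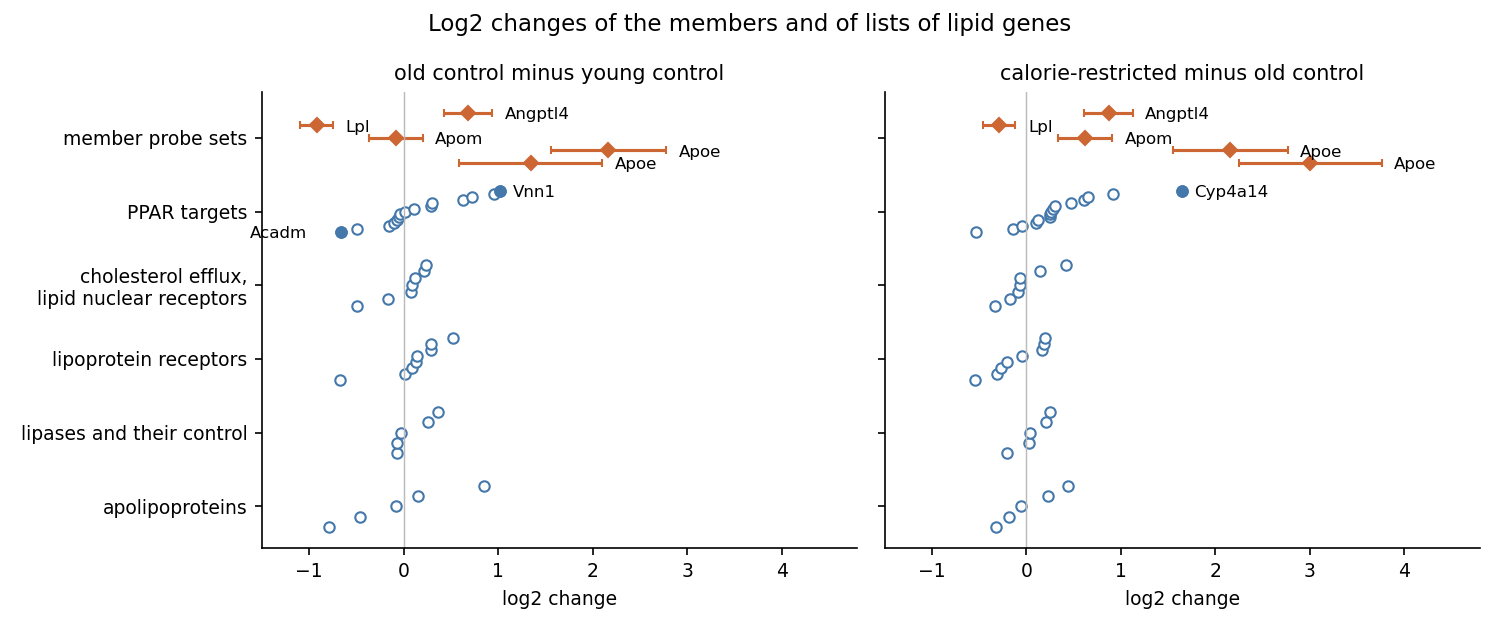
Log2 differences with age (left) and with the diet (right) of the members (diamonds, bars are SE of the limma fit over 15 animals) and of the 40 tested genes of 5 lists (circles, filled and named where the limma adjusted p was under 0.05). The 2 Apoe probe sets lie farthest right with the diet, at 3.004 and 2.16, and of the listed genes Cyp4a14 is filled, at 1.64.

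Markers of other cells that make these genes were set beside them. Macrophages express Apoe and Lpl, and 10 of 23 listed macrophage markers were tested. Their summed intensity was 55190 to 69540 in old controls, 40110 to 52230 under calorie restriction and 39800 to 46860 in young controls, so it was lower under calorie restriction than in old controls, while Apoe was higher. With age 5 of the 10 rose by limma, Ctss, Lyz2, Laptm5, C1qb and Fcer1g, where 2.95% of all tested probe sets were called higher. Both Apoe probe sets were also higher with age (1.34 and 2.17) and Lpl was lower. C1qb, C1qc, Cd14 and Lgals3 were read on second-table probe sets with the suffix f or s. The young sum and the age change of C1qb are therefore less certain. With the diet 2 fell, Ctss (-1.26 ± 0.17) and C1qb (-1.15 ± 0.17), where 1.71% of all tested probe sets were called lower. The defining macrophage markers Adgre1 and Csf1r did not pass the filter. Of 17 liver markers 4 were tested, and with the diet 0 passed by limma, with 1 at an unadjusted p under 0.05. Serpina1a read 0.61 ± 0.20, Cyp2e1 0.25 ± 0.31, Apoa2 0.23 ± 0.38 and Ttr -0.30 ± 0.20 with the diet. For age Cyp2e1 read -0.66 ± 0.31 and Ttr -0.21 ± 0.20. Alb, the albumin gene and a defining marker of liver, did not pass the filter, nor did Ahsg, Hpx or F2. Of the 4, Serpina1a is a second-table target with several probe sets, from which no age change is read.

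Fat, heart and muscle are rich in Lpl. Of 10 adipocyte markers 5 were tested and 0 passed in either comparison by limma, with 0 at an unadjusted p under 0.05. Their sum ran from 10370 to 16280 in young controls, 9746 to 21900 in old controls and 6432 to 21970 under calorie restriction. The fatty acid binding protein Fabp4 read -0.16 ± 0.34 for age and 0.10 ± 0.34 for diet, the fat hormone Adipoq 0.51 ± 0.27 and -0.35 ± 0.27, and the uncoupling protein Ucp1 -0.11 ± 0.40 and -0.50 ± 0.40. Retn read 0.39 ± 0.32 for age and 0.48 ± 0.32 for diet, and Cidea 0.14 ± 0.12 and -0.14 ± 0.12. Lep did not pass the filter. Of 10 heart and muscle markers 4 were tested and 0 passed by limma, with 1 in age and 1 in diet at an unadjusted p under 0.05, and their sum was 16620 to 24490, 13290 to 22210 and 18400 to 26030 in the same order of groups. Creatine kinase Ckm read -0.66 ± 0.26 and 0.49 ± 0.26, cardiac actin Actc1 -0.02 ± 0.17 and 0.12 ± 0.17, and cardiac troponin Tnni3 -0.27 ± 0.28 and 0.92 ± 0.28. All 4 tested heart and muscle markers were second-table probe sets with the suffix f or s, so their age differences and young sum are less certain. Of 12 endothelial markers 4 were tested and 0 passed by limma, with 1 in each comparison at an unadjusted p under 0.05. Eng read 0.45 ± 0.19 and -0.27 ± 0.19, Kdr -0.17 ± 0.24 and -0.54 ± 0.24, and Icam2 0.37 ± 0.26 and -0.07 ± 0.26. Tie1, with means of 502 in young and 997 in old controls, both below the floor, read 0.34 ± 0.31 with the diet. The sum of the 4 was 9778 to 14340 in young controls, 12820 to 19990 in old controls and 12300 to 18430 under calorie restriction. Pecam1 and Cdh5 did not pass the filter. The part of these cell types in the changes of the 4 genes was not tested.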

How the data were processed

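Total RNA of 15 numbered kidney samples was hybridised to 2 types of 1-colour short-oligonucleotide array; groups and numbers came from the sample titles. The deposited values are whole-number intensities per probe set, many of them negative (20.6% to 26.6% per array on the first table, 29.2% to 35.9% on the second). How the authors corrected background, and with which software, is not stated in these sources. Means of the deposited intensities after trimming 2% at each end lay between 1453 and 1483.

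Each array was scaled to the mean trimmed level of its table (factors 0.995 to 1.01). Values were floored, per table, at the root mean square of its negative values, and log2 was taken of these scaled and floored intensities. Control probe sets (122) and 16 other rows blank on some arrays were left out, and 4512 probe sets above the floor on at least 5 arrays were tested. The array annotation named 1 gene for 7561 probe sets, several for 224 and none for 5394; 7544 symbols were updated through a RefSeq table of GRCm38.p6. Both tables, scaled apart, were joined by group and number, and limma 3.58.1 (R 4.3.3) was fitted to all 3 groups, with Benjamini-Hochberg adjusted p under 0.05 as the call, after testing on simulated data. The brightest probe set stood for a listed gene.

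The 4 genes and all lists were chosen with earlier results of these data known. Named genes were all member probe sets, listed genes past the threshold, otherwise the 4 brightest of a pathway list or the 3 brightest of a marker list, and the 5 most and 5 least like Apoe. Cyp4a10, Plin2, Fabp3, Slc25a20, Fabp5, Tie1, Retn, Cidea and the proximal tubule markers other than Gatm were named outside this rule, with their values seen. Alternatives changed the scaling, floor, transform, filter, moderation, groups fitted, number sets and block, or left out 1 animal. The number of arrays limits the precision. Plots used matplotlib 3.10.9.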

Additional observations from a re-analysis of the deposited data

Results flagged for a closer look

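Young control 5 stood apart on the first Apoe probe set: its intensity of 14723 lay above the other 4 young controls, which read 290 to 3083, and its gap to the nearest of them was 0.806 of the range of the group, above Dixon's critical value of 0.71 for 5 samples. The same animal was the brightest young control on the second Apoe probe set, at 19158, and on Apom and Lpl, at 7759 and 18041. Of 18 groups of 5 values checked this was the 1 past that value, and chance flags about 1 in 20.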

How the results depend on the processing

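Changes of the 4 genes kept their direction under every alternative run except Apom with age, which ran from -0.43 to 0.15. Angptl4 with age (0.68) was 0.2011 in numbers 1 to 3 and 1.399 in numbers 4 and 5, Apoe of the second table with age (2.17) was 3.308 with an asinh transform, and Apoe of the first table with the diet (3.004) was 1.509 in numbers 4 and 5.

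The count of 228 probe sets called with age became 344 with the number set as a term, 140 in numbers 4 and 5, 62 without second-table probe sets of suffix i, f, s or r, and 150 without targets of several such probe sets (added once the data had been seen). The 118 with the diet became 68 with the floor doubled, 49 with at least 10 arrays above the floor, 68 with no filter, 67 with only the 2 groups fitted, 224 with the set term, 250 in numbers 1 to 3, 9 in numbers 4 and 5, 32 without the suffixes, and 73 to 127 without 1 animal (73 without calorie-restricted animal 1, 77 without animal 5). The 258 between calorie-restricted and young animals became 439 with the set term, 106 in numbers 4 and 5, 110 without the suffixes and 169 without targets of several probe sets.

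Pathway genes called with age (2) numbered 1 with the floor doubled or halved, 2 groups fitted, numbers 4 and 5, or no suffixes, 0 with no filter, and 0 to 3 without 1 animal. Those called with the diet (1) numbered 0 with quantile normalization, the floor halved, at least 10 arrays, no filter, numbers 4 and 5 or no suffixes, 3 with the set term or numbers 1 to 3, and 0 to 2 without 1 animal.

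The correlation between the Apoe probe sets (0.81) lost its call with quantile normalization (0.7627), the floor doubled (0.7976), the replicate block (0.7068), the set term (0.6972), numbers 1 to 3 (0.1613) and numbers 4 and 5 (0.9923, too few animals to pass), and without young control 1, 3, 4 or 5 or old control 4 or 5 (0.691 to 0.8927 over all animals left out). That of Lpl with Apoe of the second table (0.57) lost its call with quantile normalization (0.4024), asinh (0.4133), the replicate block (0.09449), the set term (0.4392), numbers 1 to 3 (0.4041) and numbers 4 and 5 (0.5765), and without young control 5 (0.5004 to 0.701 over all). Relations that did not pass changed sign: Lpl with Apoe of the first table in numbers 1 to 3 (-0.05884), Angptl4 with the first table under the set term (-0.08228) and in numbers 1 to 3 (-0.5819), and Angptl4 with the second table with the floor halved (0.03873), asinh (0.02906) and numbers 4 and 5 (0.655). Leaving out 1 animal gave -0.3713 to 0.413 and -0.01223 to 0.2599 for Apom, and -0.06395 to 0.3264 and -0.1999 to 0.1186 for Angptl4, with the first and second Apoe probe set. The cause was not tested.

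Same-numbered samples of different groups correlated at -0.0142 to 0.49 in their deviations. Of 15 such pairs 13 were over 0.1 and 2 were not, and in 1 of 15 the own number correlated best, so pairing was not settled and the block was kept as an alternative. With the replicate block both called correlations were lost (above), Lpl with Apoe of the first table turned to -0.2483 and Angptl4 with Apoe of the second table to 0.1225. It called 274 probe sets with age, 165 with the diet and 327 between calorie-restricted and young animals.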
